A study of Oryza sativa Japonica Group with 8 samples.

Results

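The JAZ (JASMONATE ZIM-DOMAIN) proteins of the TIFY family are described here through the transcripts of 10 rice gene IDs, taken from a fixed list of IDs out of the 38978 IDs that were counted. All 10 had enough counts to be tested. The list is given by ID, but 5 of its genes are ones that the study had picked from these libraries in a comparison named below. Other TIFY genes of rice lie outside it. The list was chosen with earlier results of these data known, so counts over the 10 members are descriptions and not independent evidence. The measurements are RNA-seq counts from shoots of Taipei 309 rice at an age of 10 days (seedlings with the roots removed), in 4 groups of 2 libraries each. T_CS was RD29A:DREB1a transgenic rice held on ice for 20 h, a cold shock, and N_CS was the non-transgenic control under the same cold shock. T_RT and N_RT were these genotypes kept at room temperature.

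The transgene places the Arabidopsis cold-responsive transcription factor DREB1a under RD29A, an Arabidopsis promoter that is itself induced by cold and drought. The T lines carry it within a multigene stack inserted by Cre-lox recombination, which holds marker genes besides DREB1a, so that effects of DREB1a and of the other inserted genes cannot be told apart. In the labels, T seedlings came from homozygous lines 11, 20 and 29 and were screened for induction of DREB1a before pooling, whereas the study's methods name 11 and 29 as the homozygous lines, besides hemizygous ones. N is labelled wild type, and the design text states that it is T5, the Cre-lox founder line. Each group was 1 pool of RNA from 6 seedlings, and its 2 libraries are technical replicates of that pool. Every SD, SE, interval and p-value therefore rests on the spread between libraries of the same pool or on counting error. Variation from plant to plant and from pool to pool is not in them. In such bulk RNA, more cells expressing a gene and more transcript per cell cannot be told apart.

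Jasmonate is a plant hormone made from linolenic acid, known for its part in wounding, defence, fertility and stress responses. In its absence JAZ proteins bind MYC-type transcription factors and hold their target genes silent, with the help of co-repressors. When the active conjugate of jasmonate accumulates, the F-box receptor COI takes up JAZ proteins and marks them for breakdown by the proteasome, which frees the MYC factors. JAZ genes are themselves among the early targets of this pathway, so that their transcripts commonly rise with jasmonate and restore repression. JAZ transcripts thus say nothing directly about the amount of JAZ protein.

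The study pairs 5 of the 10 IDs with names, namely OsJAZ1/TIFY11d (Os10g0392400), OsJAZ2/TIFY11c-like (Os03g0180900), OsJAZ5/TIFY10a (Os03g0402800), OsJAZ8/9/TIFY10c (Os09g0439200) and OsJAZ11/TIFY9 (Os04g0395800). The numbering of rice JAZ genes differs between sources, and the RefSeq synonyms give TIFY11d as JAZ12 as well as OsJAZ1, TIFY11c as JAZ11 as well as OsJAZ2, and TIFY10a as JAZ6 as well as OsJAZ5. They also give TIFY9 as JAZ5 and OsJAZ5 as well as OsJAZ11, and TIFY10c as OsJAZ7, OsJAZ8, JAZ8 and JAZ9. The TIFY names and the IDs are therefore the safer handles. Below, "OsJAZ11" always means TIFY9 and "OsJAZ5" always means TIFY10a. The other 5, Os03g0180800, Os03g0181100, Os07g0615200, Os08g0428400 and Os09g0401300, are paired with no name in the sources used here and are called by their IDs.

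Designed sequences were given for a pair of the named members, OsJAZ11 and OsJAZ5, as the primers of the study's own qRT-PCR. They are shown because OsJAZ11 changed most of the members in T_CS versus N_CS and OsJAZ5 is the member whose profile is followed at the end, and no base in them is singled out by capitals.
OsJAZ11 forward: gcagaggctataatgaggatgg
OsJAZ11 reverse: ctttggcaaaattgcctac
OsJAZ5 forward: gtgtccttcttccatcttcc
OsJAZ5 reverse: attggcctgagcaacaggaa
The primers are 19 to 22 bases long, with a GC content of 42.1% in the OsJAZ11 reverse primer and 50% in the others. The RNA-seq counts below cover whole gene models and not these amplicons.

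Total counts lay between 18963211 and 24405824 per library, and 31434 to 31984 IDs had at least 1 count. Levels are given as CPM, counts scaled to a common library size, after TMM scaling, which corrects library totals for composition and had factors from 0.935 to 1.07, lowest in T_CS. CPM is not corrected for transcript length, so levels are compared between groups for 1 gene and not between genes. Technical pairs correlated across genes with r of 0.988 to 0.992, although their counts differed by more than sampling noise, with a chi-square per gene of 1.71 to 2.39. The tissue was not checked against marker genes with known names, because no table used here pairs the IDs of such markers with names.

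The summed reads of the family were highest in T_CS and lowest in N_CS. The 10 members together had 1736 and 1795 CPM in T_CS, against 474 and 479.5 CPM in N_CS. At room temperature they had 577 and 588 CPM in T_RT, against 631 and 627 CPM in N_RT. These sums rest on 34253 and 31923 counts in T_CS and 10709 and 9289 counts in N_CS. The 2 libraries of a group lay close together in each sum, and no group overlapped another.

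**Figure D1:**
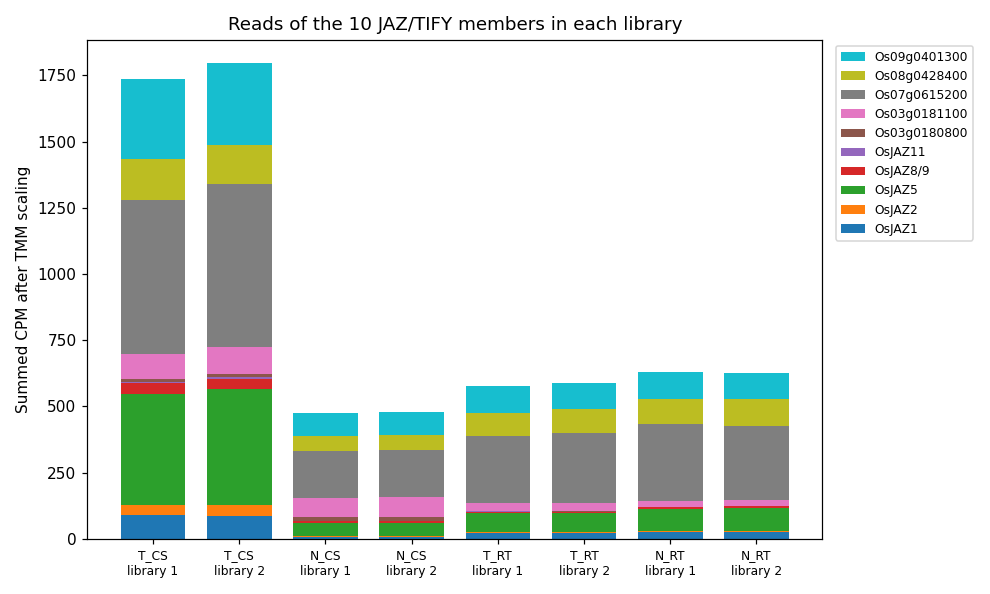
Summed CPM after TMM scaling of the 10 JAZ/TIFY members in each of the 8 libraries, each bar stacked by member. The T_CS bars reach 1736 and 1795 CPM and the N_CS bars 474 and 479.5 CPM, and the segment of OsJAZ5 takes 23.9% and 24.4% of the reads in T_CS.

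The make-up of these reads shifted between groups as well. Os07g0615200 held the largest share of family reads in every library, with 33.5% and 34.3% in T_CS against 37.5% and 37.1% in N_CS. At room temperature it held 43.8% and 45.0% in T_RT against 46.0% and 45.0% in N_RT. OsJAZ5 held 23.9% and 24.4% in T_CS but 10.5% in both libraries of N_CS, and between 12.2% and 13.7% at room temperature. Os03g0181100 held 5.33% and 5.65% in T_CS against 14.9% and 15.4% in N_CS, its highest share, and it held 5.02% and 5.21% in T_RT against 3.63% and 3.36% in N_RT. In N_CS the family was thus smaller in reads and took a larger share of them from Os03g0181100. These are shares of reads and depend on transcript length, which was not available here.

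The members fell into a few patterns of level across the groups. The first is that of OsJAZ1 and OsJAZ5, which stood highest in T_CS and lowest in N_CS with the room temperature groups between. OsJAZ1, a TIFY11 member, had 89.7 and 86.5 CPM in T_CS, against 7.30 and 7.48 CPM in N_CS. At room temperature it had 21.6 and 21.7 CPM in T_RT, against 27.3 and 25.9 CPM in N_RT. All 4 groups were apart from each other. OsJAZ5, a TIFY10 member, had 416 and 438 CPM in T_CS, against 49.8 and 50.3 CPM in N_CS. It had 74.4 and 71.6 CPM in T_RT, against 81.7 and 85.8 CPM in N_RT. The order of the groups was that of OsJAZ1, again with no overlap, and the gap between T_RT and N_RT was the narrowest.

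OsJAZ2 and OsJAZ8/9 were high in T_CS alone and near a common low level elsewhere. OsJAZ2, the second named TIFY11 member, had 39.8 and 39.7 CPM in T_CS, against 3.23 and 2.94 CPM in N_CS. It had 3.17 and 2.59 CPM in T_RT, against 3.15 and 3.21 CPM in N_RT. The N_CS, T_RT and N_RT libraries overlapped. OsJAZ8/9, the second named TIFY10 member, had 42.0 and 41.4 CPM in T_CS, against 7.61 and 6.50 CPM in N_CS. It had 3.76 and 6.03 CPM in T_RT, against 6.54 and 7.44 CPM in N_RT. Here N_CS and N_RT overlapped, both T_RT libraries lay below them, and the T_RT pair was spread more widely than in the other groups.

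OsJAZ11, the only TIFY9 member, had few reads outside T_CS. It had 124 and 115 counts in T_CS, which is 6.29 and 6.47 CPM, against 2 and 4 counts in N_CS, which is 0.0885 and 0.206 CPM. It had 14 and 10 counts in T_RT, which is 0.635 and 0.405 CPM, against 29 and 9 counts in N_RT, which is 1.12 and 0.438 CPM. T_CS stood above and N_CS below all other libraries, whereas T_RT and N_RT overlapped. For scale, 3 counts over both libraries of a group correspond to 0.0800 CPM in T_CS and 0.0715 CPM in N_CS.

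**Figure D2:**
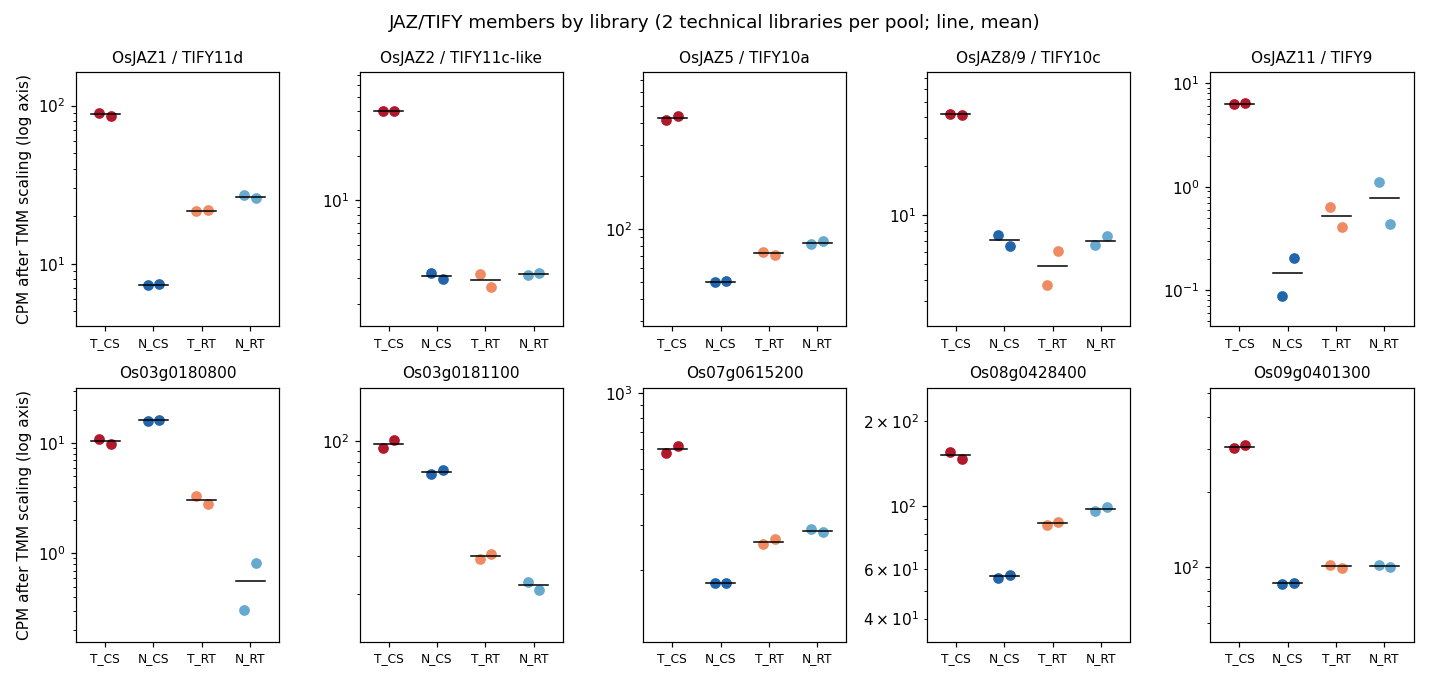
CPM after TMM scaling of each member on a log axis, 1 panel per member with its own range, in T_CS, N_CS, T_RT and N_RT from left to right. Points are the 2 technical libraries of a pool and lines their mean. T_CS is highest in 9 of 10 panels, and in the panel of Os03g0180800 N_CS is highest, at 16.0 and 16.4 CPM.

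Os07g0615200, Os08g0428400 and Os09g0401300 had the order of OsJAZ1 and OsJAZ5 over a narrower range. Os07g0615200 had 582 and 616 CPM in T_CS, against 178 and 178 CPM in N_CS, and it had 253 and 265 CPM in T_RT, against 290.3 and 282 CPM in N_RT. Os08g0428400 had 156 and 147 CPM in T_CS, against 55.8 and 57.2 CPM in N_CS, and it had 85.6 and 88.2 CPM in T_RT, against 96.1 and 99.4 CPM in N_RT. Their groups did not overlap. Os09g0401300 had 301 and 309 CPM in T_CS, against 85.7 and 86.7 CPM in N_CS, and it had 103 and 99.5 CPM in T_RT, against 102 and 100.3 CPM in N_RT. In this member the room temperature groups overlapped.

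The remaining members, Os03g0180800 and Os03g0181100, were high after cold in both genotypes. Os03g0180800 had 11.0 and 9.95 CPM in T_CS, against 16.0 and 16.4 CPM in N_CS. At room temperature it had 3.31 and 2.79 CPM in T_RT, against 0.308 and 0.827 CPM in N_RT, the last from 8 and 17 counts. It was the only member whose level was highest in N_CS, and its genotypes stood in opposite order at the 2 temperatures, with no overlap. Os03g0181100 had 92.6 and 101 CPM in T_CS, against 70.5 and 74.0 CPM in N_CS. It had 29.0 and 30.7 CPM in T_RT, against 22.9 and 21.1 CPM in N_RT. T was above N at both temperatures without overlap.

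Os03g0180800, OsJAZ2 and Os03g0181100 are successive IDs in the files' order. How reads shared by close copies or overlapping genes were counted, and with which strand setting, is not stated, so their counts are uncertain to that extent. Ratios of reads were taken after 0.5 was added to each count. The ratio of OsJAZ2 to Os03g0180800 then lay between 0.181 and 9.71 over the 8 libraries. That of OsJAZ2 to Os03g0181100 lay between 0.0401 and 0.430. Neighbours in the files' order thus had different profiles, and OsJAZ2 and Os03g0180800 differed even in which group was highest.

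The likeness of profiles was measured as the root mean square difference between centred group means of log2 CPM (prior count of 2) over the 4 groups, a description in which the points share libraries. Os07g0615200 and Os08g0428400 were the closest pair, at 0.174 on the log2 scale, and Os09g0401300 was 0.217 from Os07g0615200. OsJAZ5 and OsJAZ8/9 were nearest to each other at 0.398, OsJAZ2 was nearest to OsJAZ8/9 at 0.438, OsJAZ1 to OsJAZ5 at 0.439 and OsJAZ11 to OsJAZ1 at 0.572. Os03g0181100 was nearest to Os09g0401300 at 0.729, and Os03g0180800 was nearest to Os03g0181100 at 1.10, the largest of these distances. Both members of the TIFY11 group that have names found their nearest member in the TIFY10 group.

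Genes were tested with edgeR's quasi-likelihood test, with Benjamini-Hochberg adjustment over the 28218 IDs that passed the low-count filter, and a gene is said to have risen or fallen at an FDR of 0.01 or less. Genes that also reached a log2 fold change of 2 or more, or -1 or less, the study's thresholds, are said to be called higher or lower. The comparisons share libraries, so that a high level in T_CS enters both comparisons with T_CS and their results are not independent of each other.

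The first comparison sets the transgenic pool against the non-transgenic pool after cold shock, T_CS versus N_CS. It is a difference in level and includes any difference already present at room temperature. Of the 10 members, 9 rose and 1 fell, beside 21.4% of all tested genes that rose and 20.9% that fell. The 5 named members were called higher, beside 2.39% of all tested genes, and no member was called lower, beside 4.92%. The study picked these 5 from the same libraries for this comparison, so their count is not independent evidence of its direction. The median log2 fold change was 2.19 over the members and -0.05 over all tested genes.

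OsJAZ11 had the largest of the members' changes in T_CS versus N_CS, 5.42 on the log2 scale (SE 0.423, FDR = 3.8e-18 by edgeR). As summed counts this is 239 in T_CS against 6 in N_CS, a ratio of 44.6 after scaling with a 95% counting interval of 20.2 to 123. The size rests on the few N_CS counts, and the log2 value was 6.08 without N_CS replicate 2 and 4.90 without N_CS replicate 1. OsJAZ2 rose by 3.68 (SE 0.130, FDR = 4.84e-36), with 39.8 ± 0.0972 CPM in T_CS and 3.09 ± 0.203 CPM in N_CS (SD, n = 2 technical libraries each, edgeR). OsJAZ1 rose by 3.58 (SE 0.0819, FDR = 6.22e-47), with 88.1 ± 2.24 CPM in T_CS and 7.39 ± 0.132 CPM in N_CS. OsJAZ5 rose by 3.09 (SE 0.0425, FDR = 1.38e-59) and OsJAZ8/9 by 2.56 (SE 0.116, FDR = 4.89e-30). The named members thus differed in the size of the change, from 2.56 in OsJAZ8/9 to 5.42 in OsJAZ11, and all T_CS libraries stood above all N_CS libraries in each of them.

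In T_CS versus N_CS the median was 1.42 on the log2 scale over the unnamed members and 3.58 over the named ones, a gap that follows in part from the study's choice of the named members by this same comparison and is no result about them. Os09g0401300 rose by 1.82 (SE 0.0394, FDR = 2.03e-48 by edgeR), Os07g0615200 by 1.75 (SE 0.0333, FDR = 1.34e-51) and Os08g0428400 by 1.42 (SE 0.0469, FDR = 9.26e-38). These fell short of the log2 threshold of 2, and Os07g0615200 had 599 ± 24.1 CPM in T_CS and 178 ± 0.101 CPM in N_CS (SD, n = 2 each). Os03g0181100 rose by 0.42 (SE 0.0536, FDR = 3.38e-10), the smallest rise. Os03g0180800 fell by 0.62 on the log2 scale (SE 0.134, FDR = 6.48e-05), with 10.5 ± 0.775 CPM in T_CS and 16.2 ± 0.285 CPM in N_CS. Groups did not overlap in any member, higher in T_CS for 9 and lower for 1, beside 33.8% and 39.7% of all tested genes.

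**Figure D3:**
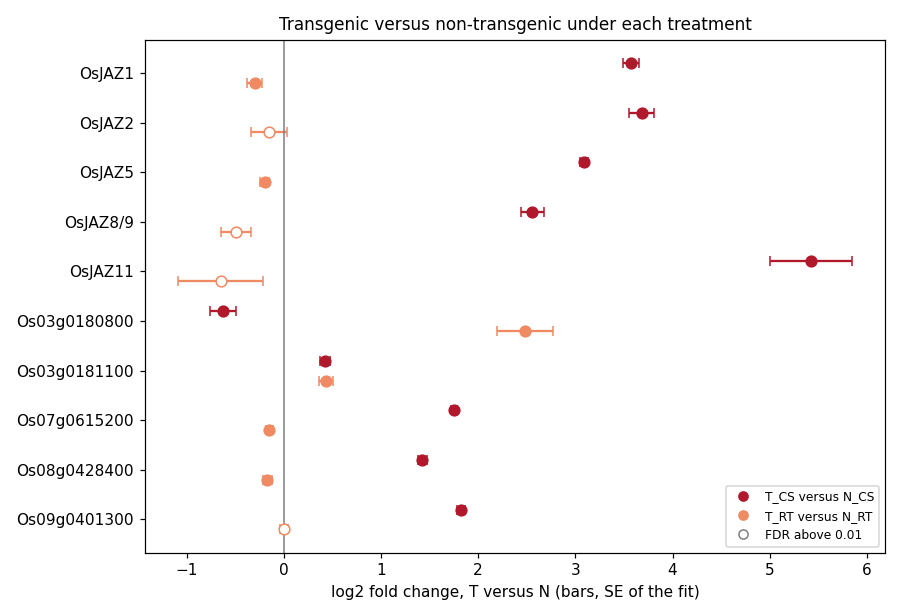
Log2 fold change of T versus N for each member after cold shock and at room temperature, with bars for the SE of the edgeR fit and open circles where the FDR was above 0.01. After cold shock 9 members lie right of 0, up to 5.42 in OsJAZ11, and at room temperature Os03g0180800 lies farthest right at 2.48.

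At room temperature the transgenic and non-transgenic pools were closer, T_RT versus N_RT. Of the 10 members, 2 rose and 4 fell, beside 9.44% of all tested genes that rose and 7.49% that fell. Os03g0180800 alone was called higher, beside 0.553% of all tested genes, and no member was called lower, beside 0.454%. The median log2 fold change was -0.16 over the members and 0.00 over all tested genes. None of the 5 named members rose in this comparison. T_RT lay above N_RT without overlap in 2 members, beside 30.2% of all tested genes, and below it in 5, beside 29.6%.

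Os03g0180800 rose by 2.48 in T_RT versus N_RT (SE 0.290, FDR = 1.24e-10 by edgeR), with 3.05 ± 0.364 CPM in T_RT and 0.567 ± 0.367 CPM in N_RT (SD, n = 2 each). The N_RT counts were few and uneven, and the log2 value was 1.87 without N_RT replicate 1 and 3.28 without N_RT replicate 2. Without N_RT replicate 1 the gene thus rose but was not called higher. Os03g0181100 rose by 0.44 (SE 0.0711, FDR = 1.15e-06), which is close in size to its 0.42 after cold shock. Both members that rose are also those that were high after cold in both genotypes.

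The 4 falls at room temperature were small. They were -0.30 in OsJAZ1 (FDR = 0.00143 by edgeR), -0.20 in OsJAZ5 (FDR = 0.000307), -0.17 in Os08g0428400 (FDR = 0.00271) and -0.15 in Os07g0615200 (FDR = 0.000296) on the log2 scale. Each of them missed an FDR of 0.01 when some single T_RT or N_RT library was left out. The count of members that fell was then 1 without N_RT replicate 1 and without T_RT replicate 1, and 2 without N_RT replicate 2 and without T_RT replicate 2. OsJAZ8/9 had a log2 value of -0.49 (SE 0.151, 95% interval -0.79 to -0.19, FDR = 0.0111), just outside the threshold, and without T_RT replicate 2 it was -0.89 (FDR = 0.000242). OsJAZ2, at -0.15 (95% interval -0.52 to 0.22, FDR = 0.635), and OsJAZ11, at -0.65 (95% interval -1.52 to 0.23, FDR = 0.317), did not pass the test at intervals this wide. Os09g0401300, at -0.00 (95% interval -0.08 to 0.08, FDR = 0.987), did not pass it with a narrower interval.

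The cold response of the transgenic pool, T_CS versus T_RT, had the same direction in all members on the list. All 10 rose and none fell, beside 26.2% of all tested genes in each direction. The 5 named members were called higher, beside 1.84% of all tested genes, and none was called lower, beside 11.0%. The study picked these 5 as high in T_CS against N_CS, and T_CS enters here too, so their count is not independent evidence. The median log2 fold change was 1.91 over the members and -0.01 over all tested genes. T_CS did not overlap T_RT in any member, beside 38.6% of all tested genes that lay higher in this way and 40.1% that lay lower.

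OsJAZ2 had the largest response in T, 3.79 on the log2 scale (SE 0.129, FDR = 5.17e-37 by edgeR), followed by OsJAZ11 at 3.62 (SE 0.327, FDR = 1.48e-15) and OsJAZ8/9 at 3.07 (SE 0.120, FDR = 1.55e-33). OsJAZ2 and OsJAZ11 differed by less than the SE of OsJAZ11. OsJAZ5 rose by 2.55 (FDR = 1.3e-56) and OsJAZ1 by 2.02 (FDR = 1.03e-37), which in OsJAZ1 is just past the threshold of 2. Over the alternatives listed under the processing, the OsJAZ1 value ran from 1.91 to 2.05. Its call as higher thus did not hold in all of them. The unnamed members rose by 1.79 in Os03g0180800, 1.70 in Os03g0181100, 1.59 in Os09g0401300, 1.21 in Os07g0615200 and 0.80 in Os08g0428400, with FDRs from 9.19e-46 to 7.37e-15 by edgeR. OsJAZ1 had the smallest response in T among the named members, although its value in T_CS versus N_CS was 3.58, and it was lower in N_CS than in N_RT.

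In the non-transgenic pool the cold response was split, N_CS versus N_RT. Of the 10 members, 2 rose, 6 fell and 2 did not pass the test, beside 19.7% of all tested genes that rose and 21.1% that fell. Os03g0180800 was called higher, beside 0.890% of all tested genes, and OsJAZ1 and OsJAZ11 were called lower, beside 5.84%. The median log2 fold change was -0.46 over the members and 0.01 over all tested genes. N_CS lay above N_RT without overlap in the 2 members that rose, beside 37.4% of all tested genes, and below it in the 6 that fell, beside 36.4%.

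Os03g0180800 rose by 4.90 (SE 0.219, FDR = 4.24e-30 by edgeR), with 16.2 ± 0.285 CPM in N_CS and 0.567 ± 0.367 CPM in N_RT (SD, n = 2 each). The log2 value was 4.25 without N_RT replicate 1 and 5.66 without N_RT replicate 2. Os03g0181100 rose by 1.71 (SE 0.0638, FDR = 2.28e-34), with 72.3 ± 2.42 CPM in N_CS and 22.0 ± 1.31 CPM in N_RT. These 2 IDs, which have OsJAZ2 between them in the files' order, were the only members to rise with cold in N.

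Among the members that fell in N, OsJAZ1 had a log2 fold change of -1.85 (SE 0.0939, FDR = 4.06e-27 by edgeR), with 7.39 ± 0.132 CPM in N_CS and 26.6 ± 0.969 CPM in N_RT. OsJAZ11 had -2.45 (SE 0.593, FDR = 0.00037), from 6 summed counts in N_CS against 38 in N_RT, a ratio of 0.175 after scaling with a 95% counting interval of 0.0605 to 0.418. This fall did not pass the test without N_RT replicate 1 (-1.61, FDR = 0.099) or without N_CS replicate 1 (-1.94, FDR = 0.019), and it was -3.11 without N_CS replicate 2. Os08g0428400 had -0.79 (FDR = 3.88e-23), OsJAZ5 had -0.74 (FDR = 4.11e-22), Os07g0615200 had -0.69 (FDR = 6.29e-28) and Os09g0401300 had -0.23 (FDR = 3.71e-06). OsJAZ2, at -0.04 (95% interval -0.41 to 0.33, FDR = 0.884), and OsJAZ8/9, at 0.03 (95% interval -0.26 to 0.32, FDR = 0.891), did not pass the test. Of the named members none rose with cold in N.

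**Figure D4:**
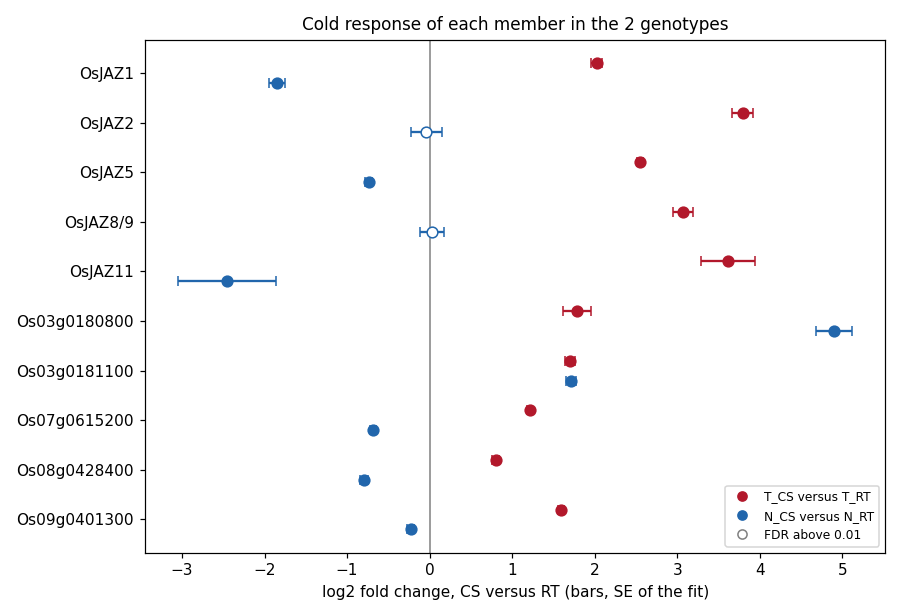
Log2 fold change of CS versus RT for each member in T and in N, with bars for the SE of the edgeR fit and open circles where the FDR was above 0.01. All 10 T values lie right of 0, 6 filled N values lie left of it, and the T and N points of Os03g0181100 fall together at 1.70 and 1.71.

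Whether the cold response differed between the genotypes was tested as the interaction, the log2 fold change of CS versus RT in T minus that in N. It was positive and past the FDR in 8 members, negative and past it in 1, and did not pass it in 1, beside 17.0% positive and 15.6% negative among all tested genes. The median difference was 2.47 over the members and -0.04 over all tested genes. The study picked the named members by T_CS versus N_CS, which enters this difference, so their part of the count is not independent evidence. The difference was largest in OsJAZ11, at 6.07 (SE 0.660, FDR = 3.59e-12 by edgeR), then 3.87 in OsJAZ1 (SE 0.114, FDR = 4.81e-40), 3.83 in OsJAZ2 (SE 0.237, FDR = 1.24e-22), 3.29 in OsJAZ5 (SE 0.0615, FDR = 2.92e-51) and 3.05 in OsJAZ8/9 (SE 0.193, FDR = 3.24e-22). The value of OsJAZ11 was 5.22 without N_RT replicate 1 and 6.73 without N_CS replicate 2. In OsJAZ1, OsJAZ5 and OsJAZ11 it joined a rise in T to a fall in N, whereas in OsJAZ2 and OsJAZ8/9 the N response did not pass the test.

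Os07g0615200, at 1.90 (SE 0.0465, FDR = 1.07e-44 by edgeR), Os09g0401300, at 1.82 (SE 0.0568, FDR = 1.11e-38), and Os08g0428400, at 1.59 (SE 0.0649, FDR = 3.8e-32), also rose in T and fell in N. Os03g0180800 had the only negative difference past the FDR, -3.11 (SE 0.319, FDR = 4.53e-13), since it rose by 1.79 in T and by 4.90 in N. That value was -2.46 without N_RT replicate 1 and -3.87 without N_RT replicate 2. Os03g0181100 had a difference of -0.01 (SE 0.0887, 95% interval -0.19 to 0.17, FDR = 0.937), so that differences beyond 0.19 on the log2 scale in either direction lay outside the interval. The successive IDs Os03g0180800, OsJAZ2 and Os03g0181100 thus had a negative difference past the FDR, a positive one past it and one that did not pass the test.

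The wider jasmonate pathway was followed through 5 genes whose part in jasmonate synthesis the study calls putative. They are 3 lipoxygenases (OsLOX1a, OsLOX1b and OsLOX2) and 2 oxophytodienoate reductases (OsOPR1 and OsOPR6), called synthesis genes below. Lipoxygenases include enzymes that oxygenate linolenic acid at the start of the pathway. Reductases of the OPR family include the enzyme that acts on the pathway's cyclic intermediate. Whether these 5 genes encode those enzymes was not tested. The study picked these genes as higher in T_CS, so their rise in T_CS versus N_CS, seen in 5 of 5 beside 21.4% of all tested genes, is not independent evidence. OsOPR1 rose by 5.11 (FDR = 4.87e-34 by edgeR), OsLOX1a by 3.09 (FDR = 2.69e-14), OsLOX1b by 2.46 (FDR = 5.35e-50) and OsLOX2 by 2.43 (FDR = 5.46e-41). OsOPR6 had 17 and 26 counts in T_CS, 1 and 0 counts in T_RT, and 0 counts in both N_CS and both N_RT libraries, so that no fold change is given.

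In T_CS versus T_RT these 5 synthesis genes all rose, as did the members, beside 26.2% of all tested genes. In N_CS versus N_RT OsLOX2 rose by 0.86 (FDR = 3.65e-12 by edgeR), OsLOX1a fell by 1.24 (FDR = 0.00233) and the others did not pass the test. In T_RT versus N_RT OsLOX2 rose by 1.06 (FDR = 1.31e-15 by edgeR) and OsLOX1b by 0.21 (FDR = 0.00437), beside 9.44% of all tested genes. OsLOX1a, at -0.97 (FDR = 0.0228), and OsOPR1, at -0.96 (FDR = 0.0226), did not pass the test. Both lay lower in T_RT than in N_RT without overlap, beside 29.6% of all tested genes. No named JAZ member rose in that comparison. OsLOX2 had 22.3 ± 0.657 CPM in T_RT and 10.6 ± 1.40 CPM in N_RT (SD, n = 2 each), and it was also higher with cold in N. The difference of cold responses was positive and past the FDR in 4 of the 5, beside 17.0% of all tested genes. It was 6.07 in OsOPR1, 4.06 in OsLOX1a, 2.25 in OsLOX1b and 1.37 in OsLOX2. For OsOPR6, without counts in any N library, the difference could not be estimated. The study's choice of these genes by T_CS versus N_CS enters this difference too, so the count is not independent evidence.

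Among the 41 genes outside the family that stand with an ID in the study's tables of genes and passed the low-count filter, those with a profile most like that of OsJAZ5 were looked up by the same root mean square measure. They were OsWRKY67 at 0.0736 on the log2 scale, a Protein Phosphatase 2C gene at 0.225, OsLOX1a at 0.266, Dip1/Dehydrin1 at 0.267 and OsLOX1b at 0.301. WRKY67 belongs to the WRKY transcription factors, type 2C phosphatases include negative regulators of abscisic acid signalling, and dehydrins are proteins that accumulate as cells lose water. With a prior count of 0.5 instead of 2, 4 of these 5 kept their place among the nearest, and the phosphatase gene moved to a distance of 0.860 and rank 21. Likeness over 4 groups is a description, and the genes compared were ones that the study selected.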

How the data were processed

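Poly(A) RNA-seq was done on 4 pools of RNA with 2 technical libraries each. Per the labels and the methods, the authors trimmed reads with Trimmomatic, aligned them with STAR to IRGSP-1.0 and obtained the deposited counts with featureCounts 1.6.4. All deposited values are whole numbers and library totals are unequal. They were therefore treated as counts without normalization, a word that the study's methods do use. Rules for strand, multi-mapping and overlapping genes are not given in the sources used here. No row lacked a gene ID.

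The libraries were grouped by their titles. Totals of 18963211 to 24405824 counts set the precision, and 3 counts over a group correspond to 0.0642 to 0.0800 CPM. Intervals from counts cover counting error only. In R 4.3.3 with edgeR 4.0.16, filterByExpr (minimum count of 10, minimum total of 15) kept 28218 of 38978 IDs. The quasi-likelihood fit took in all 8 libraries, scaled by TMM and with a mean for each group. The 5 comparisons, of which 1 is the interaction, were adjusted by Benjamini-Hochberg over all genes tested.

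The text gives all 10 members, by the study's name where it has one and otherwise by ID. The members and gene lists were chosen with earlier results of these data known. None of the 10 IDs stands in the RefSeq table used (assembly ASM3414082v1), and 5 were matched to it by TIFY name, for synonyms only. Primer sequences come from the study's supplement. Lists of IDs written from general knowledge were only counted, since no table used here pairs them with names. Promoter motifs were not searched, and the transgene's own reads were not analysed here.

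Alternatives were DESeq2 1.42.0, RLE size factors, no filter, a CPM filter (1 CPM in 2 libraries), an FDR of 0.05, the libraries of a comparison alone, the replicate number as a block and leaving out each library. Total count scaling was added after seeing the data. The replicate numbers do not pair the samples, because they number libraries of separate pools.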

Additional observations from a re-analysis of the deposited data

Results flagged for a closer look

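In 9 of the 10 members the cold response of T differed from that of N by a test of the difference itself, the interaction in edgeR with Benjamini-Hochberg adjustment over all genes, beside 17.0% of all tested genes with a positive and 15.6% with a negative difference. The log2 fold change of CS versus RT in T minus that in N was 6.07 in OsJAZ11, 3.87 in OsJAZ1, 3.83 in OsJAZ2, 3.29 in OsJAZ5, 3.05 in OsJAZ8/9, 1.90 in Os07g0615200, 1.82 in Os09g0401300 and 1.59 in Os08g0428400. In all 10 members, and not in these 8 alone, both libraries of T_CS stood above both of T_RT, beside 38.6% of all tested genes. In Os03g0180800 the difference was -3.11, and both libraries of each cold-shocked pool stood above both of its room temperature pool. Of all tested genes, 38.6% did so in T and 37.4% in N. The pools are 1 per group, so an effect of genotype on the cold response and a difference between these pools cannot be told apart. The named members were picked by the study for T_CS versus N_CS, which enters this difference, so their count is not independent evidence.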

How the results depend on the processing

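Of 50 results, 10 members in 5 comparisons, 43 passed the FDR. Over all their alternatives, 663 outcomes kept direction and side of the threshold, 15 kept the direction but missed the threshold, and none turned the direction. The losses were in T_RT versus N_RT (OsJAZ1, OsJAZ5, Os07g0615200 and Os08g0428400) and in N_CS versus N_RT (OsJAZ11). With the libraries of N_CS versus N_RT alone, OsJAZ11 was not tested and has no outcome, and 5 members fell. The count of members that fell in T_RT versus N_RT, 4, was 2 with DESeq2 and from 1 to 5 when 1 library was left out. Directions turned only in results that had missed the FDR. The difference of cold responses of Os03g0181100, -0.01, was 0.023 with DESeq2 and 0.024 with RLE size factors and ran from -0.074 to 0.077 when 1 library was left out. In T_RT versus N_RT, Os09g0401300, -0.00, was 0.00031 with the CPM filter and ran from -0.024 to 0.017, and OsJAZ11, -0.65, ran from -1.11 to 0.23. In N_CS versus N_RT, OsJAZ8/9, 0.03, was -0.082 with total count scaling and ran from -0.11 to 0.13, and OsJAZ2, -0.04, ran from -0.11 to 0.021. The causes were not tested. OsJAZ8/9 in T_RT versus N_RT, with an FDR of 0.0111, passed in 8 alternatives at the same threshold. Total count scaling moved the median log2 fold change of all genes by more than 0.1 in T_CS versus T_RT, to -0.13, and in N_CS versus N_RT, to -0.10, and the members' calls past the FDR held beside this shift. Deviations of same-numbered libraries correlated across genes at -0.0104 to 0.0113, so the numbers do not pair the samples, and with the replicate block the members that rose and fell numbered 9 and 1 in T_CS versus N_CS, with no member's call changed in any comparison. When a library is left out, the lone library of its group is assumed to vary like the others. With 6 counts of OsJAZ11 in N_CS and 25 of Os03g0180800 in N_RT, depth limits the size of their changes.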

Other observations

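Further IDs of the wider pathway and of other tissues were listed from general knowledge. Their names could not be checked in any table at hand, so they are given only as counts of IDs. The shares of all tested genes that rose and fell, beside which these counts stand, were 21.4% and 20.9% for T_CS versus N_CS. They were 9.44% and 7.49% for T_RT versus N_RT, 26.2% and 26.2% for T_CS versus T_RT, and 19.7% and 21.1% in N_CS versus N_RT. Of 5 IDs listed for jasmonate synthesis, 5 rose in T_CS versus N_CS, 1 rose and 1 fell in T_RT versus N_RT, 4 rose in T_CS versus T_RT, and 1 rose and 2 fell in N_CS versus N_RT. Of 5 IDs listed for jasmonate perception, 3 rose and 1 fell in T_CS versus N_CS, 2 fell in T_RT versus N_RT, 2 rose and 1 fell in T_CS versus T_RT, and 2 rose and 3 fell in N_CS versus N_RT. Of 3 IDs listed for further TIFY genes, 2 were tested. Of these, 2 rose in T_CS versus N_CS and none passed the test in N_CS versus N_RT. In T_RT versus N_RT 1 rose and was called higher, beside 0.553% of all tested genes. In T_CS versus T_RT 1 fell and was called lower, beside 11.0%, and the other did not pass the test. All 10 members rose in that comparison.

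Of 8 IDs listed for photosystem subunits and rubisco, 1 rose and 5 fell in T_CS versus N_CS, 8 rose in T_RT versus N_RT, 2 rose and 5 fell in T_CS versus T_RT, and 8 rose in N_CS versus N_RT. Of 3 IDs listed for roots, 1 had enough counts to be tested, which rose in T_CS versus N_CS and fell in N_CS versus N_RT. Whether these IDs move with the JAZ members for a shared reason was not tested.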
